A study of Mus musculus with 8 samples.

Results

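Cohesin is a ring-shaped protein complex that holds DNA. The genes described here are the 10 that encode its subunits in dividing cells, its loader, its release and regulatory factors, and Ctcf, the DNA-binding protein that sets where the ring comes to rest. They were chosen by symbol, as the rows of the deposited table of 38172 genes whose gene symbol is Smc1a, Smc3, Rad21, Stag1, Stag2, Nipbl, Wapal, Pds5a, Pds5b or Ctcf. All 10 were found, each as 1 row, and all 10 passed the filter on low values. Polyadenylated RNA was sequenced from HSCs (haematopoietic stem cells), which live in the marrow and give rise to every blood lineage. The old cells came from mice of 24 months and the young cells from mice of 4 months, all wild-type C57BL/6. They were sorted fresh as SP-KSL-CD150+, which selects side population cells with Kit and Sca-1, without lineage markers and with CD150. Each age had 2 biological replicates, numbered 13 and 14, and each replicate had 2 technical libraries, which gives n = 2 for each age. How many animals went into a replicate is not stated, so p-values measure only the spread between these samples.

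Smc1a and Smc3 are the long arms of the ring and Rad21 closes it. Stag1 or Stag2 binds Rad21, Nipbl loads the ring onto DNA and extrudes loops with it, and Wapal opens it again with the help of Pds5a or Pds5b. Cohesin holds sister chromatids together in dividing cells, and in all cells it folds chromatin into loops that stop at sites bound by Ctcf. In human blood, STAG2 and other cohesin genes are recurrently mutated in clonal expansions and myeloid leukaemia, and reduced cohesin raises self-renewal of mouse HSCs.

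The deposited values were scaled read counts, summed to between 40.7 M and 44.2 M per library. Depth before scaling, read from the steps between values, was 22.3 M reads in the shallowest library and 66.5 M in the deepest. Replicate values below are the mean of the 2 technical libraries, which differed by a median of 1.35% and at most 4.41% of their mean over the 40 pairs of members. The biological replicates differed by more, by a median of 15.4% between the old pair and 8.15% between the young pair. Each of the 10 HSC markers had both old replicates above both young ones, beside 24.7% of tested genes. Their median was 0.43 on the log2 scale. Slamf1 and Procr, 2 of the 10, rose in limma, beside 2.01% of tested genes called higher. The 12 neutrophil markers summed to 13276 and 27088 in old 13 and 14, against 14152.5 and 53332.5 in young 13 and 14. Mpo, Prtn3 and Elane held most of these sums. Gene by gene, 11 of the 12 had fitted changes below 0, with a median of -2.51, and 0 were called in limma. The authors' own comparison marked 11 of the 12 as lower in old HSCs and 1 as higher. Of all genes in that comparison 5.82% were marked as lower and 6.00% as higher. Of 9 stroma and endothelium markers 2 fell in limma, Col1a1 (log2 fold change -4.36) and Sparc (-2.67), beside 0.540% of tested genes. Kdr rose in limma (1.31), 1 of the 9, beside 2.01% of tested genes. The part of these markers in the members' values was not tested. Fewer cells of a type and less RNA per cell cannot be told apart in such bulk samples.

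No cohesin gene passed the test between old and young HSCs, and every fitted change was small and below 0. With limma and Benjamini-Hochberg adjustment over the 18318 genes tested, 0 of 10 members had an adjusted p under 0.05, against 2.55% of tested genes (0.540% lower and 2.01% higher in old HSCs). limma-voom also called 0, and 0 of 10 members had an unadjusted p under 0.05, which 14.0% of all tested genes had. Without old replicate 13, which leaves 1 old replicate, Nipbl and Smc3 had the lowest fitted log2 fold changes of the members, -0.66 and -0.55. The fitted log2 fold changes, old over young, lay between -0.39 and -0.01 with a median of -0.12, beside a median of 0.04 over all tested genes. Of all tested genes 43.5% had a fitted change below 0. Over the 10 members the 95% intervals reached from an old to young ratio of 0.546 to one of 1.33, so the count of 0 does not show that these genes were the same at both ages. The members' median moved to -0.26 without old replicate 13 and to -0.18 without young replicate 13, and it was -0.08 without old replicate 14. Smc3, Wapal, Pds5a and Ctcf stayed below 0 whichever replicate was left out, between -0.55 and -0.22, -0.32 and -0.03, -0.38 and -0.12, and -0.20 and -0.08 in that order. The other 6 members came out above 0 without at least 1 replicate, the highest being Smc1a at 0.16 without old replicate 14.

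**Figure D1:**
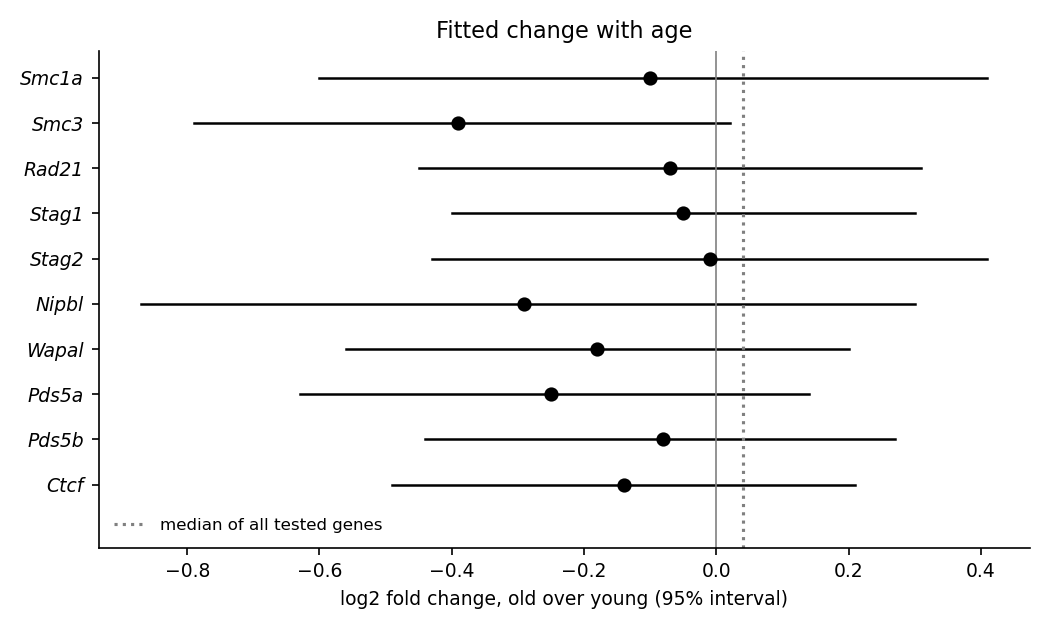
Fitted log2 fold change of each member, old over young HSCs (x axis), with its 95% interval as a line; the dotted line is the median of all 18318 tested genes, 0.04. Every interval includes 0, and Smc3 lies farthest from it at -0.39.

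The members were well expressed, and their means had the same order at both ages. On the authors' FPKM scale, which corrects for transcript length, Smc1a was highest, with 106 ± 26 FPKM in old and 111 ± 7.4 FPKM in young HSCs (SD, n = 2 each). Rad21 followed with 76.1 ± 4.6 FPKM in old and 80.0 ± 7.4 FPKM in young HSCs. Among tested genes these means stood at the 98.0th and 96.8th percentile. Pds5a, Stag2, Ctcf and Smc3 came next, with FPKM means over the 4 replicates of 54.1, 49.2, 46.6 and 41.3, and Wapal, Nipbl, Stag1 and Pds5b with 33.2, 26.5, 24.4 and 23.6. From Pds5a downward, neighbours in this order overlapped in their replicate values. The lowest of the 10, Pds5b, still stood at the 81.5th percentile of all tested genes.

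**Figure D2:**
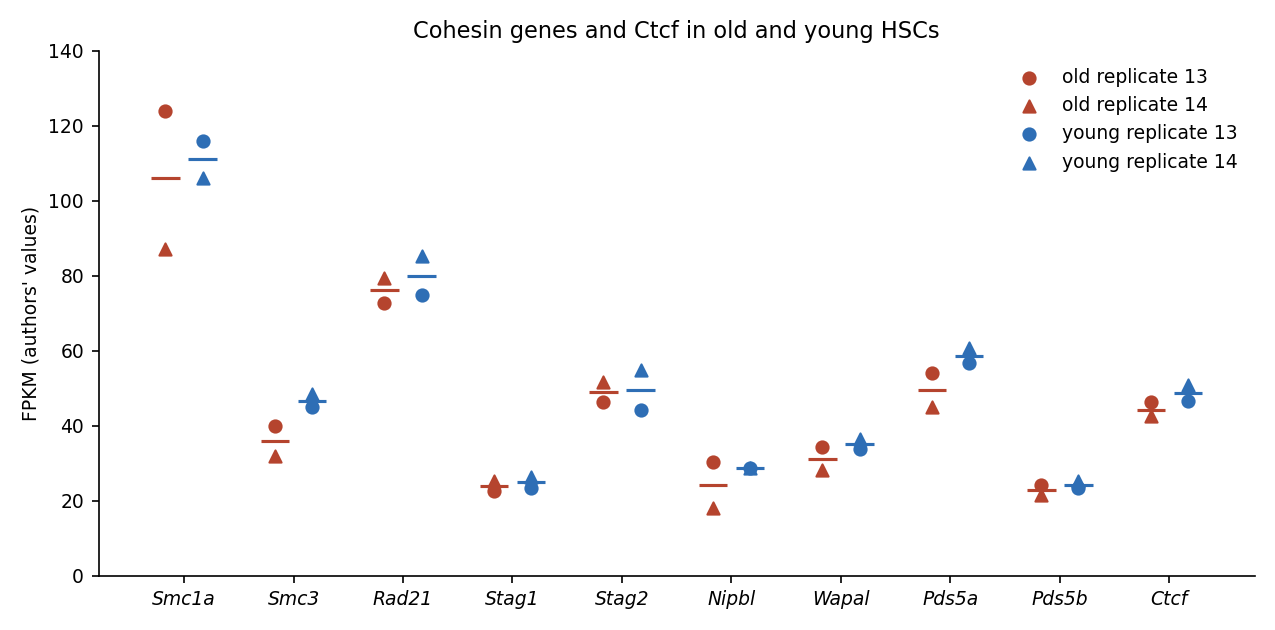
FPKM (y axis) of each member in old (left, red) and young (right, blue) HSCs; circles are replicate 13, triangles replicate 14 and bars the mean of 2 replicates. Smc1a and Rad21 stand above the rest at both ages, and Smc3, Pds5a and Ctcf have both old replicates below both young ones.

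Smc3, an arm of the ring (mm9 chromosome 19, 53674886 to 53720321), had the largest fitted change of the members. Its scaled values were 9649.5 and 7669 in old 13 and 14, against 10828.5 and 11663 in young 13 and 14. Both old replicates lay below both young ones. The log2 fold change was -0.39 (SE 0.17, 95% interval -0.79 to 0.02, adjusted p = 0.379 in limma). In the authors' deposited table Smc3 had a log2 fold change of -0.40 with an FDR of 0.00503 and was marked as lower in old HSCs. It was the only member marked there, 1 of 10, where 5.82% of the 22284 genes with an FDR were marked as lower. The other 9 members had log2 fold changes below 0 in the authors' deposited table, with FDR values of 0.0659 for Nipbl and 0.1 for Pds5a and larger ones for the rest. How technical libraries entered the authors' comparison is not given in the sources used here.

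Smc1a, the other arm (mm9 chromosome X, 148450971 to 148496516), had overlapping values. It had scaled values of 24468 and 17175 in old 13 and 14, against 22975 and 20921.5 in young 13 and 14. The old replicates spanned the young ones, with old 13 the highest and old 14 the lowest of the 4. The log2 fold change was -0.10 (SE 0.21, 95% interval -0.60 to 0.41, adjusted p = 0.903 in limma). The FPKM ratio of Smc3 to Smc1a was 0.323 and 0.365 in old 13 and 14, against 0.386 and 0.456 in young 13 and 14. The ratio was lower in both old replicates, by -0.29 on the log2 scale with a pooled replicate SD of 0.15. Without young replicate 14 the value was -0.17, and it stayed between -0.41 and -0.17 whichever replicate was left out. Ratios between members are given as values, and their differences were not tested.

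Upstream sequence is shown for both arms of the ring and for Ctcf, so that the starts of these genes can be compared. The sequences are the 250 bases before the RefSeq start in the GRCm38.p6 build, a later build than the mm9 of the deposited table, on the plus strand at chr19:53600146-53600395, chrX:152016178-152016427 and chr8:105636288-105636537. Capitals mark a GC box (GGGCGG) or a CCAAT box (CCAAT), each searched on both strands.
Smc3: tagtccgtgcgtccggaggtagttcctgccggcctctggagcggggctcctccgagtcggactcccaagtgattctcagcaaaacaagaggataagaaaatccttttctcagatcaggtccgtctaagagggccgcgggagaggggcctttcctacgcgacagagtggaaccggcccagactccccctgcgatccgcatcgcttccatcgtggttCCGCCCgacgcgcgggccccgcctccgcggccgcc
Smc1a: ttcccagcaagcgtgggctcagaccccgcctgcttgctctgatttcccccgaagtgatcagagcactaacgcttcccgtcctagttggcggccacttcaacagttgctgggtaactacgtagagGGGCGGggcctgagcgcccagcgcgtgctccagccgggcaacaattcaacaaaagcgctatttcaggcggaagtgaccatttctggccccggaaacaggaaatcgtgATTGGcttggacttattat
Ctcf: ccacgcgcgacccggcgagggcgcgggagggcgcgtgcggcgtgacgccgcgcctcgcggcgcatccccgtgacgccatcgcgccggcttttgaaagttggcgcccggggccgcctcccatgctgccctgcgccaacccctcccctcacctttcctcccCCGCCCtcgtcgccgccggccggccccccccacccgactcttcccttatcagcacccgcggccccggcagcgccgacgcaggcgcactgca
Of the 10 members 7 had an entry in the RefSeq promoter table, with Wapal listed there as Wapl. A GC box was found in 7 of 7 of these windows, against 32.7% of 32851 mouse promoters of the same length, and a CCAAT box in 4 of 7, against 33.8%. Smc1a had both, and Smc3 and Ctcf had only the GC box. The windows were rich in G and C, between 56.8% for Smc1a and 80.4% for Pds5a, beside a median of 52.4% over all promoters. The core of the Ctcf motif was found in 0 of 7 and in 0.0335% of all promoters. The ETS core (CCGGAAG) was found in 0 of 7 windows, against 6.91% of all promoters, and the NRF1 motif in 0 of 7, against 0.782%. The E2F motif TTTGGCGC was found in 1 of 7 windows, that of Pds5a, and in 0.417% of all promoters. Its variant TTTCCCGC was found in 1 of 7, that of Stag1, and in 0.895% of all promoters.

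Rad21, the subunit that closes the ring and is cut at anaphase, had overlapping values. Its scaled values were 13075.5 and 14244.5 in old 13 and 14, against 13426 and 15307 in young 13 and 14. The ages overlapped, and replicate 14 was the higher at both ages. This gave a log2 fold change of -0.07 (SE 0.16, 95% interval -0.45 to 0.31, adjusted p = 0.906 in limma). The Rad21 model (mm9 chromosome 15, 51794150 to 51823306) shares 1411 bases with the unnamed model HAG_013184 on the opposite strand. That model had scaled values between 4420 and 5290, and whether the counting used strand is not given in the sources used here, so the Rad21 value is uncertain to that extent.

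Stag1 and Stag2, the alternative subunits that bind Rad21, had the smallest fitted changes of the members. Stag2 (mm9 chromosome X, 39502589 to 39630352) had 14009 and 15609 in old 13 and 14, against 13351 and 16595.5 in young 13 and 14, and both old values lay between the young ones. Its log2 fold change was -0.01 (SE 0.18, adjusted p = 0.992 in limma), with an interval of -0.43 to 0.41 that allows an old to young ratio between 0.743 and 1.33. Stag1 (mm9 chromosome 9, 100544042 to 100858963) had 6787.5 and 7558.5 in old 13 and 14, against 7017.5 and 7838.5 in young 13 and 14, so the ages overlapped. Its log2 fold change was -0.05 (SE 0.15, adjusted p = 0.929 in limma), which allows a ratio between 0.756 and 1.23. Stag2 exceeded Stag1 in every replicate, by FPKM ratios of 2.04 in both old replicates, against 1.88 and 2.09 in young 13 and 14. These ratios overlapped between the ages. The model 4930408F14Rik spans Stag2 on the same strand, with scaled values of at most 1.5.

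Nipbl, the loader (mm9 chromosome 15, 8241225 to 8394463), had the largest difference between replicates of 1 age. Its scaled values were 13558.5 and 8089.5 in old 13 and 14, against 12783.5 and 12799.5 in young 13 and 14. Old 13 was the highest of the 4 and old 14 the lowest, while the young pair was nearly equal. The old replicates differed by 50.5% of their mean and the young ones by 0.125%. The log2 fold change was -0.29 (SE 0.25, 95% interval -0.87 to 0.30, adjusted p = 0.70 in limma), and it was 0.08 without old replicate 14. The log2 difference of old 14 minus old 13 was -0.75 for Nipbl, and 7.48% of tested genes had a lower one. The Nipbl gene model was 2.48 times as long as that of Rad21, at the 97.1th percentile of tested genes, as given by the ratio of scaled value to FPKM. Of 5 equal groups of tested genes by length, the longest had a median of old 14 minus old 13 of -0.15 and the shortest 0.07. Of the 6 members in the longest group, Nipbl, Smc3, Wapal and Pds5b were lower in old 14, and Stag1 and Stag2 were higher. The part of transcript length in these differences was not tested.

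Wapal, the release factor (mm9 chromosome 14, 35487114 to 35559403), had 7831 and 6410 in old 13 and 14, against 7714.5 and 8338 in young 13 and 14. Old 14 was the lowest of the 4, and old 13 lay between the young replicates. The fitted log2 change was -0.18 (SE 0.16, 95% interval -0.56 to 0.20, adjusted p = 0.717 in limma). The FPKM ratio of Nipbl to Wapal, loader over release factor, was 0.886 and 0.646 in old 13 and 14, against 0.848 and 0.786 in young 13 and 14. The old ratios spanned the young ones.

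Pds5a and Pds5b are paralogs that bind the ring and act with Wapal in release and with acetylation in cohesion. Pds5a (mm9 chromosome 5, 66006499 to 66089095) had 11135 and 9260 in old 13 and 14, against 11673.5 and 12474 in young 13 and 14, with both old values below both young ones. Its log2 fold change was -0.25 (SE 0.16, 95% interval -0.63 to 0.14, adjusted p = 0.599 in limma). Pds5b (mm9 chromosome 5, 151476402 to 151613245) had 8849.5 and 7811 in old 13 and 14, against 8459.5 and 9151.5 in young 13 and 14, and the ages overlapped. Its log2 fold change was -0.08 (SE 0.15, adjusted p = 0.878 in limma). The FPKM ratio of Pds5b to Pds5a was 0.449 and 0.477 in old 13 and 14, against 0.41 and 0.415 in young 13 and 14. Both old ratios lay above both young ones, by 0.17 on the log2 scale with a pooled replicate SD of 0.04, and this difference was not tested.

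Ctcf, the zinc finger protein at which extruded loops stop, lies on mm9 chromosome 8 from 108160438 to 108206822. It had 8803 and 8089.5 in old 13 and 14, against 8904 and 9688.5 in young 13 and 14. The old values were both below the young ones, old 13 only narrowly. The log2 fold change was -0.14 (SE 0.15, 95% interval -0.49 to 0.21, adjusted p = 0.768 in limma), which allows an old to young ratio between 0.714 and 1.16. The FPKM ratio of Ctcf to Rad21 was 0.634 and 0.535 in old 13 and 14, against 0.625 and 0.596 in young 13 and 14, with the ages overlapping. Ctcf, Smc3 and Pds5a were thus the 3 of 10 members with both old replicates below both young ones, an arrangement that 17.4% of tested genes had in that direction. No member had both old replicates above both young ones, which 24.7% of tested genes had, and 42.1% had 1 arrangement or the other.

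The old replicates differed in the same direction for most members. Old 14 was below old 13 in 7 of 10 members, and 48.9% of tested genes were lower in old 14. The 3 exceptions were Rad21 and its alternative partners Stag1 and Stag2, with log2 differences of 0.12, 0.16 and 0.16. Between the young replicates only Smc1a was lower in replicate 14, by -0.14, and Nipbl was level. Log2 values centred on each gene's mean over the 4 replicates put Rad21 and Stag1 closest of all pairs, with a root mean square difference of 0.0185, and Nipbl and Stag2 farthest apart, with 0.365. Ctcf lay nearest to the mean profile of the members (0.0295) and Nipbl farthest from it (0.207). Over all tested genes the median distance from this profile was 0.245, and 38.7% of them lay nearer to it than Nipbl. Each member is part of the mean it is measured against, which shortens its distance, so the members' distances and those of other genes are not alike. The genes outside the lists nearest to it were Ddx21, a nucleolar RNA helicase (0.00274), Sf3b1, a splicing factor (0.0107), and Rapgef6, an exchange factor for Rap proteins (0.013), over 4 replicates.

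**Figure D3:**
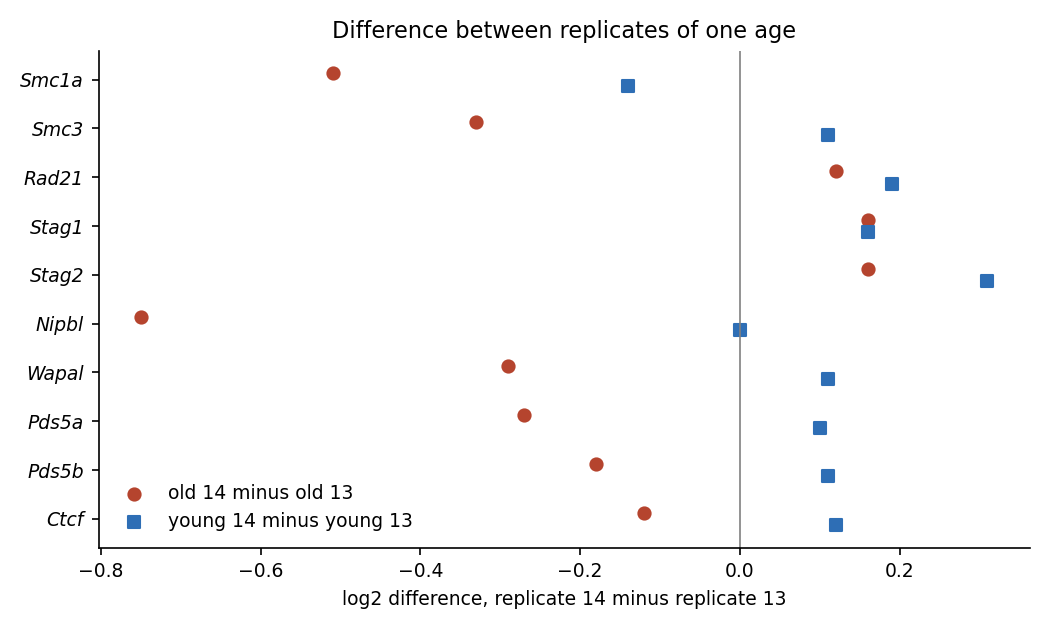
Log2 difference of replicate 14 minus replicate 13 (x axis) for each member, in old (red circles) and young (blue squares) HSCs. Nipbl, at -0.75, and Smc1a, at -0.51, have the widest gap between the old replicates, while Rad21, Stag1 and Stag2 lie above 0 at both ages.

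The factors that load, acetylate and secure cohesin on DNA had fitted changes on both sides of 0. Of 8 tested genes of this list 0 passed in limma, 4 had an unadjusted p under 0.05 in the lower direction, beside 5.08% of tested genes, and the list's median was -0.34 on the log2 scale, against 0.04 over all tested genes. Cdca5, or sororin, which holds cohesin on replicated DNA against Wapal, had 1278.5 and 1299.5 in old 13 and 14, against 1777.5 and 1849.5 in young 13 and 14. Its log2 fold change was -0.49 (SE 0.14, adjusted p = 0.153 in limma). Esco2, the S-phase acetyltransferase of Smc3, had 1041.5 and 937 in old 13 and 14, against 1400 and 1429.5 in young 13 and 14 (log2 fold change -0.52, adjusted p = 0.158 in limma). The replicates did not overlap in either gene. Esco1, the acetyltransferase that acts through the cell cycle, and Hdac8, which removes the acetyl group, had log2 values of 0.01 and 0.07, old over young. For Mau2, the partner of Nipbl, this value was -0.19. These 3 were chosen after their values were seen.

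Genes that protect cohesin at centromeres or cleave it had 5 of 6 fitted changes below 0 and a median of -0.54, and 0 passed in limma, with 4 at an unadjusted p under 0.05 in the lower direction, beside 5.08% of tested genes. Plk1, a mitotic kinase that removes cohesin from chromosome arms, had 1289 and 1240.5 in old 13 and 14, against 1892 and 1877.5 in young 13 and 14. Its log2 fold change was -0.58 (SE 0.14, adjusted p = 0.099 in limma). Espl1, the separase that cuts Rad21, had 2316 and 1702.5 in old 13 and 14, against 3461 and 2806.5 in young 13 and 14 (log2 fold change -0.65, adjusted p = 0.18 in limma). Both old replicates lay below both young ones in each of these genes. Of this list, the authors' deposited table marked as lower 5 of 6 genes and, of the loading and acetylation list, 4 of 8, beside 5.82% of all genes with an FDR.

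Among 5 paralogs known for cohesin of the germ line and for Ctcf in testis, 3 passed the filter on low values. Stag3, the meiotic counterpart of Stag1 and Stag2, was the only gene of the cohesin lists that passed the test. It fell to scaled values of 119 and 84.5 in old 13 and 14, against 270 and 263.5 in young 13 and 14. The log2 fold change was -1.41 (SE 0.25, adjusted p = 0.0394 in limma), at a low level of 0.485 FPKM in old and 1.27 FPKM in young HSCs. The call was lost with limma-voom (adjusted p = 0.0626) and with any 1 of the 4 replicates left out. Leaving out a replicate leaves 1 age with only 1 replicate, so the loss there says little about Stag3. With all 4 replicates, the call was also lost in limma with equal library totals (adjusted p = 0.0685). The same held in limma for a prior without a trend (adjusted p = 0.0726) and for the lower-numbered technical libraries (adjusted p = 0.102). The log2 fold change stayed between -1.65 and -1.16 whichever replicate was left out. Rec8, the meiotic counterpart of Rad21, had 3181.5 and 2411.5 in old 13 and 14, against 2052 and 1691.5 in young 13 and 14. Both old values lay above both young ones. The gene was named after its values were seen and had 0.57 on the log2 scale (SE 0.19, adjusted p = 0.217 in limma). It had 27.5 FPKM in old and 18.4 FPKM in young HSCs. The authors' deposited table marked Rec8 as higher in old HSCs (FDR 0.000558), beside 6.00% of genes with an FDR. It marked Stag3 as lower, beside 5.82%. Smc1b had scaled values between 21 and 37. Rad21l and Ctcfl, with values of at most 1.5, were not tested.

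Partners of Ctcf and other architectural factors had a median of -0.09 on the log2 scale, and 0 of 8 tested genes passed in limma, with 0 at an unadjusted p under 0.05. Chd8, a remodeller that binds Ctcf, had 10827.5 and 7221.5 in old 13 and 14, against 11714.5 and 10443 in young 13 and 14, a log2 fold change of -0.32 (adjusted p = 0.61 in limma). Maz, a zinc finger protein that binds beside Ctcf, had 11481.5 and 11307.5 in old 13 and 14, against 13475.5 and 12471 in young 13 and 14 (-0.19, adjusted p = 0.679 in limma). The Chd8 replicates overlapped and those of Maz did not. In the authors' deposited table Chd8 was marked as lower (FDR 0.0235), 1 of the 8 genes, beside 5.82% of all genes with an FDR.

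None of the genes of the other SMC complexes passed in limma. All 8 condensin genes, which compact chromosomes at mitosis, had both old replicates below both young ones, as 17.4% of tested genes did, with a median log2 fold change of -0.49. Of these 6 had an unadjusted p under 0.05, beside 5.08% of tested genes in that direction, and the authors' deposited table marked 7 as lower, beside 5.82% of genes. Ncapg2, of condensin II, had 3771.5 and 3523 in old 13 and 14, against 4907.5 and 5386 in young 13 and 14 (-0.50, adjusted p = 0.155 in limma). Ncapd2, of condensin I, had 9901 and 8757 in old 13 and 14, against 13905 and 13200 in young 13 and 14 (-0.54, adjusted p = 0.155 in limma). The 7 tested genes of the Smc5/6 complex, which acts in DNA repair, had a median of -0.10, with 2 having both old replicates below both young ones and 1 both above. Smc6 and Smc5 had log2 fold changes of -0.32 and -0.27, with adjusted p = 0.449 and 0.538 in limma. Smc6 was the 1 gene of the 7 that the authors' deposited table marked as lower (FDR 0.0292), beside 5.82% of genes. No test compared the cohesin genes with these complexes.

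Proliferation genes had lower values in old HSCs without passing the test in limma. All 24 tested proliferation genes had both old replicates below both young ones, beside 17.4% of tested genes, with a median of -0.47 on the log2 scale. In limma 0 were called, beside 0.540% of tested genes called lower, and 19 had an unadjusted p under 0.05, beside 5.08%. The authors' deposited table marked 22 of the 24 as lower, beside 5.82% of all genes with an FDR. Ube2c, a ubiquitin-conjugating enzyme of mitotic exit, and Aurka, a mitotic kinase, had log2 fold changes of -0.59 and -0.52, with adjusted p = 0.105 and 0.144 in limma. Summed over the list, the values were 161255 and 144371.5 in old 13 and 14, against 221307 and 216103.5 in young 13 and 14. Summed over the 10 cohesin members they were 118166.5 and 101916 in old 13 and 14, against 117133 and 124777 in young 13 and 14, where old 13 lay between the young replicates. Erythroid markers were also lower: 4 of 6 fell in limma, beside 0.540% of tested genes, and the list summed to 1905.5 and 1672.5 in old 13 and 14, against 4233 and 3484 in young 13 and 14. Klf1, an erythroid transcription factor, fell to 388.5 and 284 in old 13 and 14, against 862.5 and 820 in young 13 and 14 (-1.34, adjusted p = 0.0231 in limma). None of the 6 erythroid markers was at 0 in any replicate. All 7 macrophage markers had fitted changes below 0, with a median of -1.03, and 0 were called in limma. Of these 4 had both old replicates below both young ones, beside 17.4% of tested genes. The part of proliferation, of erythroid cells and of macrophages in the Smc3, Pds5a and Ctcf values was not tested.

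**Figure D4:**
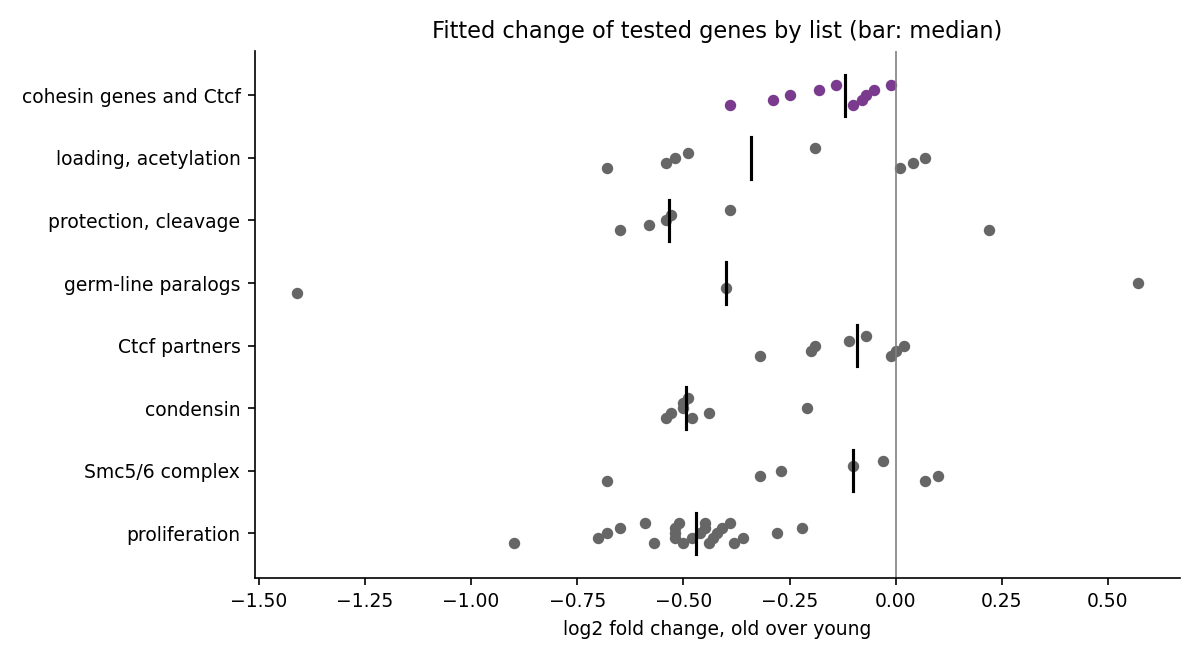
Fitted log2 fold change, old over young HSCs (x axis), of each tested gene of the cohesin members and 7 other lists; points are genes, vertical bars are list medians and vertical offsets only separate points. The cohesin members have a median of -0.12, against -0.49 for condensin and -0.47 for proliferation genes.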

How the data were processed

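The deposited files hold, for each gene and library, a score and the authors' FPKM. The scores behave as read counts scaled by the authors with a library factor (0.6171 to 1.8389, found from the steps between values) and rounded. In the 4 libraries with a factor above 1, whole numbers are skipped and 0 gene values up to 100 fall on one; the other 4 skip none, so this check says nothing of them. The authors' FPKM equals the score times a constant of the gene. The authors' deposited table adds their log2 fold change and FDR, an adjusted p-value, with genes marked at an FDR under 0.05 and a summed mean FPKM of at least 1. The submitters' processing notes name mm9 and DESeq. No aligner or counter is known from the sources used here.

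Technical libraries were averaged. For log2(score + 0.5), limma 3.58.1 in R 4.3.3 fitted age alone with a trended prior, a two-sided test and Benjamini-Hochberg adjustment over genes with a score of at least 10 in at least 2 of 4 replicates. Scaled scores are not raw counts, so no count model was used. The procedure was tested on simulated reads. The members and lists were chosen with earlier results of these data known. All members were named, then in every other list the genes past the threshold or, failing those, the 2 with the smallest p, and the 3 genes nearest to the members' mean profile. Alternatives changed the pseudocount, filter, scaling, variance model, technical libraries, replicate block or left out a replicate.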

Additional observations from a re-analysis of the deposited data

How the results depend on the processing

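Under 16 alternatives 0 of 10 members passed in any, and of 160 refitted member changes 151 kept their direction. The pseudocounts, the filters, the prior without a trend and the replicate block left every member's fitted change as reported. Those refits were bound to keep the direction, so 151 of 160 overstates how firm it is. All reversals but that of Stag2 with the higher-numbered technical libraries came with a replicate left out. With no filter on low values 0 of all genes passed, so 0 members was fixed in advance there. Fits with a replicate left out had only 1 replicate for 1 age, so their count of 0 members carries little weight. Smc3 stayed between -0.55 and -0.22 on the log2 scale, with adjusted p between 0.07 and 0.996 in limma. The reversals were of small values: without old replicate 13 Stag1 was 0.03 and Stag2 0.07, without old replicate 14 Smc1a was 0.16, Nipbl 0.08 and Pds5b 0.01, without young replicate 14 Rad21 was 0.02, Stag1 0.03 and Stag2 0.15, and with the higher-numbered technical libraries Stag2 was 0.01. The cause was not tested. With a replicate left out, the log2 fold changes ranged from -0.35 to 0.16 for Smc1a, -0.17 to 0.02 for Rad21, -0.13 to 0.03 for Stag1, -0.17 to 0.15 for Stag2, -0.66 to 0.08 for Nipbl, -0.32 to -0.03 for Wapal, -0.38 to -0.12 for Pds5a, -0.17 to 0.01 for Pds5b and -0.20 to -0.08 for Ctcf. Members at an unadjusted p under 0.05 numbered 0 in limma as reported. This number is not given for the fits with a replicate left out, where 1 age has only 1 replicate. Among alternatives that kept all 4 replicates, it was 1 each with median-ratio factors, the lower-numbered technical libraries and the replicate block. Over all tested genes those 3 settings had 2563, 2362 and 4902 genes at that p, in that order, beside 2573 in limma as reported. The Pds5b to Pds5a log2 ratio, 0.17 between old and young, ranged from 0.12 to 0.21 with a replicate left out, and that of Smc3 to Smc1a from -0.41 to -0.17. Of all tested genes 467 were called. The count was 302 with a mean FPKM of at least 1, 293 with the lower-numbered technical libraries, 0 with no filter on low values (2943 at an unadjusted p under 0.05), and between 0 and 263 with a replicate left out. The call of Stag3, for which alternatives were chosen after seeing the data, held in 6 of 15. These include the fits with a replicate left out and the fit with no filter on low values, where a lost call says little about Stag3. The other losses were with limma-voom, equal library totals, the prior without a trend and the lower-numbered technical libraries.

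Same-numbered replicates of both ages share only a number in the labels. Replicate 13 minus 14 correlated between old and young at 0.544 over 18318 genes, which are not independent. With the replicate block 2766 genes were called and again 0 members, with Smc3 at an adjusted p = 0.07.

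With n = 2 for each age the widest interval of a member, that of Nipbl, ran from -0.87 to 0.30. The lowest scaled value of a member was 6410, and technical libraries differed by at most 4.41% of their mean.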
